A study of Mus musculus with 6 samples.

Results

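The genes of voltage-gated sodium and calcium channels were followed in the hippocampus of mice given CerM and of mice given vehicle. They were taken by symbol: the sodium channel pore genes (Scn with a number and a) and beta genes (Scn with a number and b), the calcium channel pore genes (Cacna1), and the calcium channel auxiliary genes of the alpha2-delta (Cacna2d), beta (Cacnb) and gamma (Cacng) families. The rule found 40 genes among the 55414 of the table, 20 of them pore and 20 auxiliary subunits. RNA of hippocampus was sequenced in 6 libraries, 3 of CerM and 3 of vehicle, with values deposited as TPM, which corrects read numbers for the length of the transcript and sums to about the same total in each library, so that genes can be compared. The labels spell out neither CerM nor its dose or duration, and give no strain, genotype, sex or age for either group, so whatever all animals shared is not known here. The series as a whole concerns ceramides, the gut microbiota and depression brought on by corticosterone.

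A voltage-gated channel opens an ion-selective pore when the membrane depolarises. Sodium channels start and carry the action potential. High-voltage calcium channels couple depolarisation to transmitter release and gene expression, and low-voltage (T-type) channels open near rest and shape burst firing. A single large pore subunit sets ion selectivity and voltage sensing, while smaller auxiliary subunits set how many channels reach the membrane and how they gate. Most brain gamma subunits act mainly as TARPs, which carry AMPA-type glutamate receptors to the synapse. In hippocampal pyramidal cells the sodium pores are mostly those of Scn2a and Scn8a, and Scn1a is the main one of fast-spiking interneurons.

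No tested channel gene differed between CerM and vehicle hippocampus beyond the spread of the libraries. Those averaging 1 TPM or more across all libraries, 31 of the 40, were tested, and limma called 0 of the 31 at an adjusted p below 0.05, where it called 0.0% of all 14916 tested genes. Unadjusted p-values below 0.05 were found for 0 of the 31, against 2.7% of all tested genes. The smallest adjusted p among them was 0.989 (limma, Benjamini-Hochberg over all tested genes). Levels overlapped between the groups in 30 of the 31. The exception was Cacna1c, the L-type pore gene Cav1.2, which was higher in each CerM library than in any vehicle library; among all tested genes 3.26% were higher and 4.04% lower without overlap, 7.3% in all, so 1 of 31 is no result about these genes. Single libraries stood apart instead. CerM library 2 held the highest value of 20 of the 31 genes (64.5%, against 41.1% of all tested genes). Vehicle library 1 held the lowest value of 13 (41.9%, against 32.8%) and the highest of 9 (29.0%, against 16.9%).

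The libraries differed in markers of neighbouring regions and other cell types, whose part in the channel values was not tested. Neocortex markers summed to 358 TPM in vehicle library 1, where 9 of 10 were highest, against 186 to 194 TPM in the other 5 libraries. Markers of hippocampal principal neurons, all detected in each library, summed to 518 TPM there, with 12 of 13 lowest, against 707 to 814 TPM elsewhere. Oligodendrocyte markers stood at 3907 TPM there, with 7 of 7 lowest, against 5999 to 7147 TPM. Adipocyte markers summed to 663 TPM in CerM library 3 and to 0.45 to 1.78 TPM in the others. Choroid plexus markers summed to 9304 and 10939 TPM in CerM libraries 1 and 3 and 15710 TPM in vehicle library 3, against 253 to 303 TPM in the rest. In bulk tissue, fewer cells of a type and less RNA per cell cannot be told apart. The titles call the libraries biological replicates without saying whether each is a separate animal, and the p-values refer to the spread between these libraries.

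Short stretches around transcription starts are given for 3 genes chosen after their values were seen, 2 with the same highest and lowest library and 1 that differed. Cacna1b and Cacna1c were highest in CerM library 2 and lowest in vehicle library 1, and Scn1a was highest in vehicle library 1. The windows run from 250 bases before to 50 bases after the start in RefSeq on GRCm38.p6: chr2:24763103-24763402 on the minus strand for Cacna1b, chr6:119196360-119196659 on the minus strand for Cacna1c and chr2:66440788-66441087 on the minus strand for Scn1a. Each of these starts lies within 10 bases of the first start of its gene in GENCODE M21, as did 11 of the 41 windows found for channel genes. Capitals mark GGGCGG on either strand, the GC box bound by SP-family factors.
Cacna1b: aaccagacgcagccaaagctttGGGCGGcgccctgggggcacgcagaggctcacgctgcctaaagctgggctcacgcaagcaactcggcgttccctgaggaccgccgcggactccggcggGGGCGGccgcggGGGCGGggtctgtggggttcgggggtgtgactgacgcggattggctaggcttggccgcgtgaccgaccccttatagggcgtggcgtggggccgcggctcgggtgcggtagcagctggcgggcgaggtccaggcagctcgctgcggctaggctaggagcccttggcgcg
Cacna1c: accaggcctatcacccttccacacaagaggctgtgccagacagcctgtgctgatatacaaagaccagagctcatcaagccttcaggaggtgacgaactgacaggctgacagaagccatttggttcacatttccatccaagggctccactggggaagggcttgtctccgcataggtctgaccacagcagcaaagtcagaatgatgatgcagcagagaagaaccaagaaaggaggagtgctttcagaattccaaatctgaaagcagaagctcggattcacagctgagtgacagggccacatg
Scn1a: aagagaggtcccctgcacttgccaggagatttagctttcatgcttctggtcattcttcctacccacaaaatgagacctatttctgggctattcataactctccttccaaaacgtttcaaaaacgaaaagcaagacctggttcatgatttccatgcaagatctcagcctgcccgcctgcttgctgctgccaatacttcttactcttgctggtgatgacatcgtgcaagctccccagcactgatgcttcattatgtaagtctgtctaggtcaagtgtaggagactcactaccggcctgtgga
The number of GC boxes was 3 in the Cacna1b window, 0 in that of Cacna1c and 0 in that of Scn1a, and G and C made up 72.3%, 51.3% and 47.3% of their bases. RefSeq gave 41 windows for 30 of the 40 channel genes, with a median of 59.3% G and C, against 52.7% over all 32851 windows. On either strand, GGGCGG was in 16 of the 41 (39.0%, against 35.7% of all windows) and TATAAA in 2 (4.88%, in Cacna1d and Scn2a, against 13.6%). TGACGTCA, the cAMP response element, was in 0 (1.79% of all), as was TTCAGCACC, the left part of the RE1 element of the repressor REST (0.371% of all). The other windows do not sit at the first GENCODE start of their gene, and the matches are letters in short windows, not binding.

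Sodium channel pores came chiefly from 3 genes, in the same order in all 6 libraries: Scn8a, then Scn2a and Scn1a, with Scn3a below them. Scn8a, which encodes Nav1.6 of the axon initial segment and nodes, stood at 40.7, 59.1 and 44.5 TPM in CerM libraries 1 to 3, against 37.9, 41.4 and 46.9 TPM in vehicle libraries 1 to 3. CerM library 2 was the highest and the groups overlapped, with a log2 fold change of TPM + 1 (CerM over vehicle, as in all that follow) of 0.18 ± 0.16 (SE; 95% confidence interval −0.19 to 0.54). Scn2a, the gene of Nav1.2, stood at 34.7, 43.1 and 35.6 TPM in CerM libraries 1 to 3, against 34.7, 33.9 and 37.5 TPM in vehicle libraries 1 to 3. It was again highest in CerM library 2, the other 5 libraries lay within 33.9 to 37.5 TPM, and its log2 fold change was 0.09 (−0.18 to 0.36). Scn1a, the gene of Nav1.1, stood at 16.0, 19.0 and 18.7 TPM in CerM libraries 1 to 3, against 21.9, 16.7 and 16.6 TPM in vehicle libraries 1 to 3. Its highest library was vehicle library 1, in which the interneuron marker Pvalb was also highest at 139 TPM against 70.2 to 83.0 TPM elsewhere. Of 8 interneuron markers 4 were highest and 1 lowest in that library. Their sum there, 1535 TPM, lay below the 1636 TPM of vehicle library 3. How far Scn1a and these markers go together was not tested. The log2 fold change of Scn1a was −0.03 (−0.36 to 0.31).

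The other sodium pore genes were scarce. Scn3a, a pore gene used mostly in the embryonic brain, averaged 6.52 ± 0.94 TPM in CerM and 5.62 ± 0.53 TPM in vehicle (SD, n = 3 each), with a log2 fold change of 0.18 (−0.17 to 0.53). Scn9a, the pore gene Nav1.7 known for its part in pain sensing, missed the minimum and was not tested. It stood at 0.21, 4.09 and 0.14 TPM in CerM libraries 1 to 3, against 0.11, 0.26 and 0.20 TPM in vehicle libraries 1 to 3, so that CerM library 2 alone held it above 0.26 TPM. Markers of sensory neurons, where Scn9a is best known, summed to 3.00 TPM in that library, the lowest of the 6, against 4.29 to 10.3 TPM elsewhere. Scn7a, a sodium sensor with little voltage gating, was at 0.43 to 0.88 TPM. Scn4a of skeletal muscle and Scn10a and Scn11a of sensory neurons reached at most 0.08 TPM, and Scn4a was listed at 0 in all 3 CerM libraries.

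As shares of the sodium pore TPM, all 3 leading genes overlapped between the groups. Scn8a held 40.9, 43.4 and 41.8% in CerM libraries 1 to 3, against 37.8, 41.7 and 43.0% in vehicle libraries 1 to 3. Scn2a held 34.9, 31.7 and 33.4% in CerM libraries 1 to 3, against 34.6, 34.1 and 34.4% in vehicle libraries 1 to 3. Scn1a held 16.1, 13.9 and 17.6% in CerM libraries 1 to 3, against 21.8, 16.8 and 15.2% in vehicle libraries 1 to 3, and vehicle library 1 was the one with the most Scn1a and the least Scn8a.

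**Figure D1:**
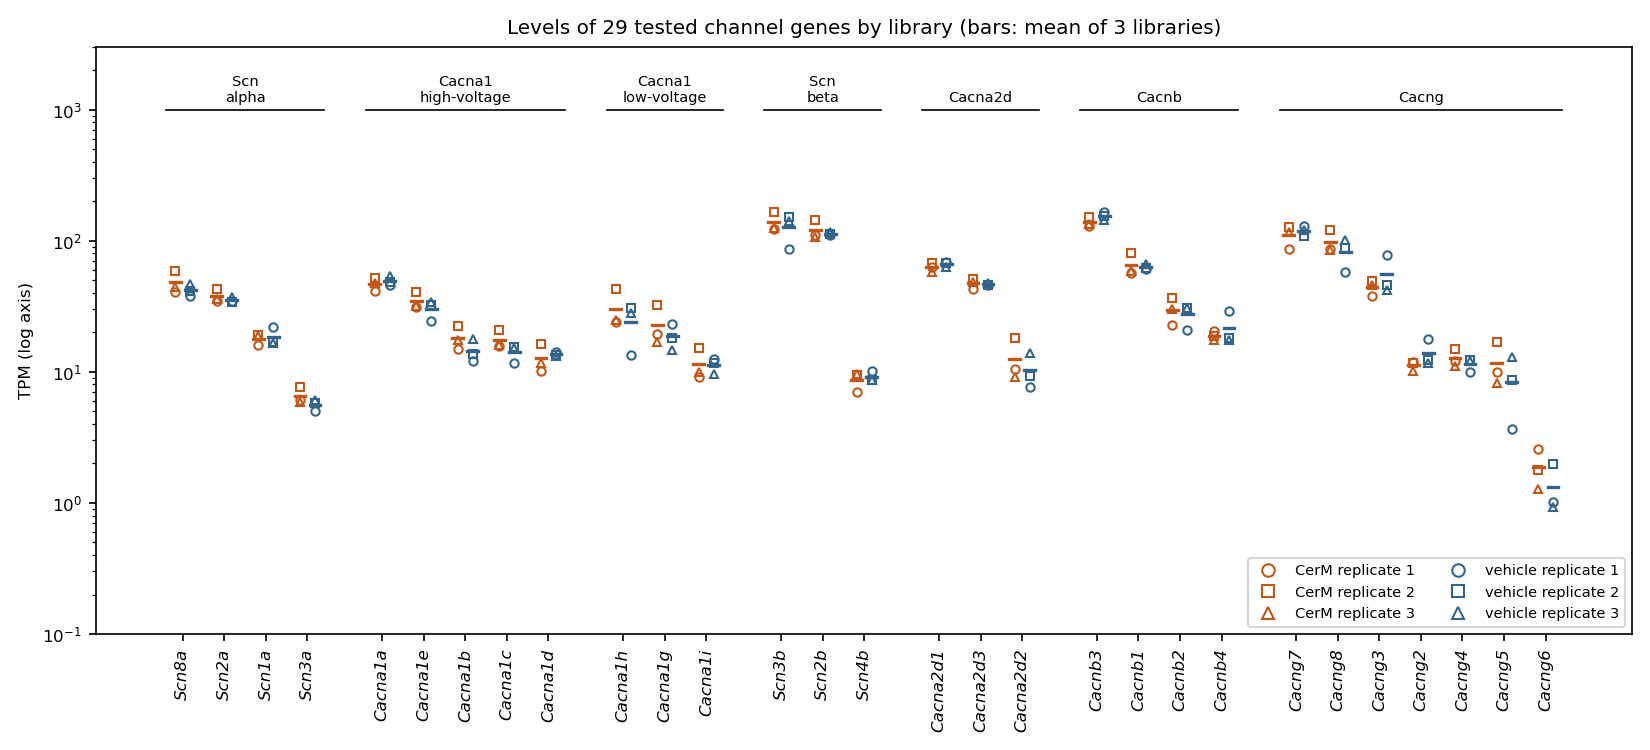
TPM of 29 of the 31 tested channel genes on a log axis, by family and by falling mean, with CerM libraries (orange) left of vehicle libraries (blue), 1 symbol per library and a bar at each group mean. Cacnb3 has the highest mean of the genes drawn, with its libraries at 130 to 166 TPM, and the CerM and vehicle points overlap for each gene but Cacna1c, where the gap is from 15.7 to 15.4 TPM.

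Among high-voltage calcium channel pores, Cacna1a and Cacna1e led in each library. Cacna1a, the P/Q-type pore gene of transmitter release, stood at 41.2, 51.9 and 47.2 TPM in CerM libraries 1 to 3, against 46.1, 48.7 and 53.5 TPM in vehicle libraries 1 to 3. The groups overlapped and the log2 fold change was −0.08 (−0.35 to 0.19). Cacna1e, the R-type pore gene, stood at 30.9, 40.6 and 31.7 TPM in CerM libraries 1 to 3, against 24.6, 32.3 and 34.2 TPM in vehicle libraries 1 to 3. It was highest in CerM library 2 and lowest in vehicle library 1, with a log2 fold change of 0.18 (−0.20 to 0.56).

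Cacna1b and Cacna1c had the smallest unadjusted p of the pore genes, at 0.143 and 0.115, and neither passed limma's adjusted test (adjusted p = 0.989 for both). Cacna1b, the N-type pore gene, stood at 14.8, 22.3 and 17.6 TPM in CerM libraries 1 to 3, against 12.1, 13.6 and 17.7 TPM in vehicle libraries 1 to 3. CerM library 1 lay below vehicle library 3, so the groups overlapped, and the log2 fold change was 0.31 ± 0.19 (SE; 95% confidence interval −0.13 to 0.75). It was 0.16 without CerM library 2, 0.20 without vehicle library 1 and 0.05 without both. Cacna1c, which links depolarisation to gene expression, stood at 15.7, 20.9 and 15.9 TPM in CerM libraries 1 to 3, against 11.7, 15.4 and 15.3 TPM in vehicle libraries 1 to 3. All CerM libraries lay above all vehicle libraries, narrowly at the nearest pair, and the log2 fold change was 0.29 ± 0.16 (SE; 95% confidence interval −0.09 to 0.67). Without vehicle library 1, the lowest, it was 0.17, and without CerM library 2, the highest, 0.16; without both it was 0.04.

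The other high-voltage pores were lower. Cacna1d, an L-type pore gene of neurons and endocrine cells, averaged 12.7 ± 3.20 TPM in CerM and 13.6 ± 0.54 TPM in vehicle (SD, n = 3 each), with a log2 fold change of −0.11 (−0.52 to 0.29). Cacna1s of skeletal muscle fell just under the minimum with a mean of 0.945 TPM (0.40 to 1.35 TPM over the 6 libraries). Cacna1f of the retina was at 0 to 0.06 TPM. As a share of high-voltage pore TPM, Cacna1a held 36.4, 33.8 and 37.7% in CerM libraries 1 to 3, against 42.3, 39.1 and 39.5% in vehicle libraries 1 to 3. Cacna1c held 13.8, 13.6 and 12.7% in CerM libraries 1 to 3, against 10.7, 12.3 and 11.3% in vehicle libraries 1 to 3. These shares did not overlap between the groups, Cacna1a being lower and Cacna1c higher in CerM; that was so of 3 of the 31 within-family shares, where the levels of 7.3% of all tested genes did not overlap, and no test was made of a share. The last was the share of Scn2b in sodium channel beta TPM, higher in CerM.

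Low-voltage pores spread widely between libraries. Cacna1h, the T-type pore gene Cav3.2, stood at 23.9, 42.6 and 24.7 TPM in CerM libraries 1 to 3, against 13.4, 30.8 and 28.0 TPM in vehicle libraries 1 to 3. It spread over 3.19-fold, between vehicle library 1 at the low end and CerM library 2 at the high end, with a log2 fold change of 0.36 ± 0.34 (SE; 95% confidence interval −0.44 to 1.16). Cacna1g, the gene of Cav3.1, stood at 19.4, 32.3 and 16.8 TPM in CerM libraries 1 to 3, against 23.3, 18.03 and 14.6 TPM in vehicle libraries 1 to 3. CerM library 2 was again the highest, vehicle library 1 was next, and the log2 fold change was 0.25 (−0.36 to 0.86). Cacna1i, the gene of Cav3.3, stood at 9.19, 15.1 and 9.92 TPM in CerM libraries 1 to 3, against 12.4, 11.7 and 9.59 TPM in vehicle libraries 1 to 3, with a log2 fold change of −0.01 (−0.47 to 0.46). In 5 of 6 libraries the order was Cacna1h, Cacna1g, Cacna1i, and in vehicle library 1 Cacna1g passed Cacna1h. Without vehicle library 1 the log2 fold change of Cacna1h was −0.004, against 0.36 with it.

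Sodium channel beta subunits are single-pass proteins that shape gating and cell adhesion. Scn3b stood at 123, 166 and 124 TPM in CerM libraries 1 to 3, against 87.0, 152 and 142 TPM in vehicle libraries 1 to 3. Vehicle library 1 was far below the rest, the other 5 overlapped, and the log2 fold change was 0.14 (−0.38 to 0.67). Scn2b, which joins the pore through a disulfide bond, stood at 110, 143 and 107 TPM in CerM libraries 1 to 3, against 110, 112 and 116 TPM in vehicle libraries 1 to 3, with CerM library 2 apart from 5 libraries within 107 to 116 TPM and a log2 fold change of 0.08 (−0.21 to 0.37). Scn4b was low, at 8.70 ± 1.43 TPM in CerM and 9.14 ± 0.86 TPM in vehicle (SD, n = 3 each; log2 fold change −0.07 (−0.43 to 0.29)).

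Alpha2-delta subunits, extracellular proteins that raise calcium channel density at the membrane and bind gabapentin in the case of Cacna2d1 and Cacna2d2, gave 2 narrow intervals and 1 wide one. Cacna2d1 stood at 63.3, 68.1 and 57.6 TPM in CerM libraries 1 to 3, against 68.5, 67.7 and 62.6 TPM in vehicle libraries 1 to 3, with a log2 fold change of −0.07 (−0.30 to 0.15). Cacna2d3 stood at 42.8, 50.9 and 48.7 TPM in CerM libraries 1 to 3, against 45.9, 46.0 and 47.2 TPM in vehicle libraries 1 to 3, with a log2 fold change of 0.03 (−0.20 to 0.26). For both, the interval excludes a change of TPM + 1 by 1.5-fold. Cacna2d2 stood at 10.5, 17.99 and 9.13 TPM in CerM libraries 1 to 3, against 7.71, 9.23 and 13.9 TPM in vehicle libraries 1 to 3, which spread over 2.33-fold, and its log2 fold change was 0.25 (−0.42 to 0.91). Cacna2d4 was at 0.40 to 1.69 TPM with its highest value in vehicle library 1, and was not tested.

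Beta subunits of calcium channels bind the pore in the cytoplasm and bring it to the membrane. Cacnb3 led in each library, at 130, 151 and 134 TPM in CerM libraries 1 to 3, against 166, 153 and 143 TPM in vehicle libraries 1 to 3. CerM libraries 1 and 3 lay below all vehicle libraries and CerM library 2 within their range. Its log2 fold change was −0.16 ± 0.10 (SE; 95% confidence interval −0.39 to 0.07), with the smallest unadjusted p of the auxiliary genes, 0.141, and an adjusted p of 0.989 by limma. Cacnb1 stood at 57.1, 80.0 and 59.2 TPM in CerM libraries 1 to 3, against 60.8, 61.8 and 65.9 TPM in vehicle libraries 1 to 3, with CerM library 2 above 5 libraries within 57.1 to 65.9 TPM and a log2 fold change of 0.04 (−0.28 to 0.37). Cacnb2 stood at 22.8, 36.5 and 30.0 TPM in CerM libraries 1 to 3, against 20.7, 30.9 and 30.7 TPM in vehicle libraries 1 to 3, lowest in vehicle library 1, with a log2 fold change of 0.11 (−0.39 to 0.61). Cacnb4, whose loss causes the lethargic mouse, stood at 20.4, 18.8 and 17.4 TPM in CerM libraries 1 to 3, against 29.1, 17.9 and 17.6 TPM in vehicle libraries 1 to 3. It was within 17.4 to 20.4 TPM in 5 libraries and highest in vehicle library 1, with a log2 fold change of −0.15 (−0.61 to 0.31).

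Within the gamma family, vehicle library 1 differed from the others in opposite directions. Cacng8, the TARP gene most characteristic of hippocampus, stood at 86.9, 121 and 84.3 TPM in CerM libraries 1 to 3, against 57.9, 88.2 and 101 TPM in vehicle libraries 1 to 3. Its lowest value was in vehicle library 1 and its log2 fold change was 0.26 (−0.27 to 0.79). Cacng3, a TARP gene of cortex, stood at 37.7, 49.3 and 45.7 TPM in CerM libraries 1 to 3, against 77.8, 46.2 and 42.0 TPM in vehicle libraries 1 to 3. Its highest value was in vehicle library 1, the other 5 lay within 37.7 to 49.3 TPM, and its log2 fold change was −0.27 (−0.81 to 0.27). The ratio of Cacng8 to Cacng3 was 2.30, 2.47 and 1.84 in CerM libraries 1 to 3, against 0.744, 1.91 and 2.39 in vehicle libraries 1 to 3. Vehicle library 1 is the one with the highest sum of neocortex markers and the lowest of hippocampal principal neuron markers; their part in the ratio was not tested.

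Other gamma genes also differed by library. Cacng2, the stargazin gene, stood at 11.9, 11.7 and 10.2 TPM in CerM libraries 1 to 3, against 17.7, 12.3 and 11.7 TPM in vehicle libraries 1 to 3, highest in vehicle library 1, with a log2 fold change of −0.26 (−0.66 to 0.14). Without that library it was −0.08, and that of Cacng3 was −0.0019 in place of −0.27. Cacng7, a TARP gene of the second class, stood at 86.0, 127 and 117 TPM in CerM libraries 1 to 3, against 129, 108 and 120 TPM in vehicle libraries 1 to 3, lowest in CerM library 1, with a log2 fold change of −0.13 (−0.49 to 0.23). Cacng5 of the same class averaged 11.7 ± 4.65 TPM in CerM and 8.42 ± 4.66 TPM in vehicle (SD, n = 3 each), lowest at 3.63 TPM in vehicle library 1, with a log2 fold change of 0.51 (−0.47 to 1.49). Cacng4, another TARP gene, averaged 12.7 ± 1.97 TPM in CerM and 11.4 ± 1.32 TPM in vehicle (log2 fold change 0.14 (−0.21 to 0.49)). Cacng6, a gamma gene of muscle, averaged 1.87 ± 0.66 TPM in CerM and 1.31 ± 0.59 TPM in vehicle (log2 fold change 0.32 (−0.31 to 0.94)). Cacng1, the other muscle gamma gene, was listed at 0 in 5 libraries and at 0.18 TPM in CerM library 3.

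**Figure D2:**
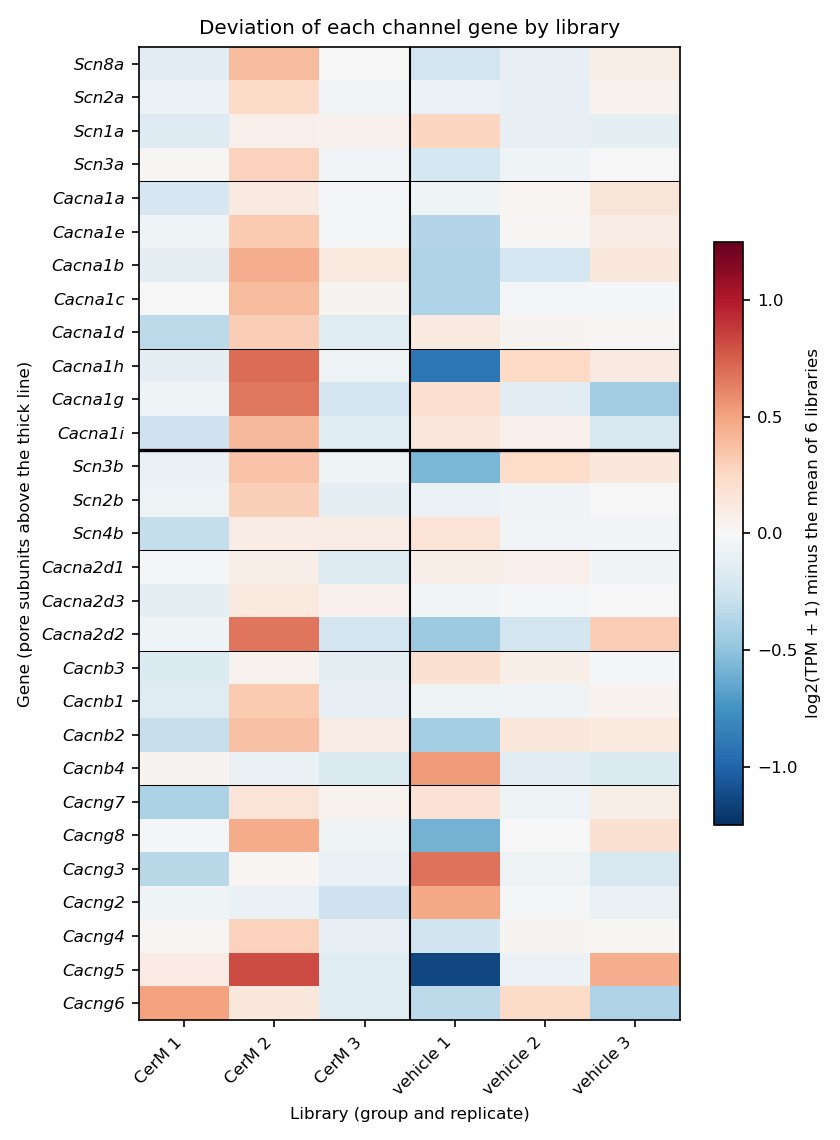
Deviation of 29 of the 31 tested channel genes from their means over 6 libraries, on log2(TPM + 1), with 1 column per library (CerM left, vehicle right) and pore subunits above the thick line. CerM library 2 is red in most rows (pore median 0.40), and vehicle library 1 mixes blue rows such as Cacna1h and Cacng5 with red rows such as Cacng3 and Cacnb4.

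Pore and auxiliary genes were then set against each other. Of 13 tested pore genes 9 lay above 0 and 4 below, and their median log2 fold change was 0.18. Of 18 auxiliary genes 10 lay above 0 and 8 below, with a median of 0.04. Over all 31 the counts were 19 and 12 with a median of 0.09, and over all 14916 tested genes 58.8% lay above 0 with a median of 0.03. The 13 pore genes ran from −0.11 for Cacna1d upwards and the 18 auxiliary genes from −0.27 for Cacng3 to 0.51 for Cacng5. No gene of either role was called.

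CerM library 2 stood out for the pore genes, though not for these alone. It held the highest value of 11 of 13 pore genes (84.6%) and 9 of 18 auxiliary genes, against 41.1% of all tested genes. It also held the highest value of 35 of 50 tested partner genes (70.0%), described below. Its median deviation from the 6-library mean was 0.40 for pore genes, 0.15 for auxiliary genes and 0.12 for all tested genes. Pore transcripts are long, with a median longest transcript of 9560 bases in the annotation, against 3700 for auxiliary genes and 3255 for all tested genes. In CerM library 2 the median deviation was 0.21 over 2036 tested genes with a transcript of at least 6000 bases and 0.02 over 3677 tested genes with none of 2000 bases or more. In vehicle library 1 those medians were −0.15 and 0.02, and the pore median was −0.22. The part of transcript length in the pore values was not tested. Without CerM library 2 the counts above and below 0 became 7 and 6 for pore genes and 5 and 13 for auxiliary genes, with medians of 0.02 and −0.08. Unadjusted p was then below 0.05 for 9.68% of the 31 genes, against 3.64% of all tested genes. Among these were Cacna1d and Cacnb3, with log2 fold changes of −0.30 and −0.23 and an adjusted p of 0.999 by limma. Without vehicle library 1 they were 10 and 3 and 9 and 9, with medians of 0.10 and 0.01. Without both, an alternative chosen after seeing the data, they were 6 and 7 and 2 and 16, with medians of −0.02 and −0.12, where the median of all tested genes was −0.05.

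The ratio of auxiliary to pore transcripts was lower in each CerM library than in any vehicle library. Summed auxiliary TPM over summed pore TPM was 5.02, 4.45 and 4.98 in CerM libraries 1 to 3, against 5.84, 5.36 and 5.14 in vehicle libraries 1 to 3. It averaged 4.82 ± 0.32 over the CerM libraries and 5.45 ± 0.36 over the vehicle libraries (SD, n = 3 each), a difference of −0.63, which was −0.25 without vehicle library 1 and CerM library 2. For sodium channels alone, beta over pore TPM was 7.42, 6.78 and 7.28 in CerM libraries, against 8.11, 8.64 and 7.72 in vehicle libraries, without overlap. The sodium channel genes are also part of the auxiliary and pore sums, so this gap is not separate from the one above. Such sums are set mostly by their most abundant genes, and whether this gap holds for each gene of the family is not reported here. The groups overlapped in both ratios between calcium channel families: calcium channel beta over high-voltage pore TPM was 2.03, 1.86 and 1.92 in CerM, against 2.54, 2.12 and 1.90 in vehicle, and alpha2-delta over high-voltage pore TPM was 1.03, 0.902 and 0.927 in CerM, against 1.13, 0.991 and 0.917 in vehicle. These ratios are sums over genes picked by name, so they are given as values with no test. As a scale, the levels of 7.3% of all tested genes did not overlap between the groups. The same kind of ratio was taken over all tested nuclear genes, with short transcripts (under 2000 bases) over long ones (at least 6000 bases). It was 7.40, 5.84 and 6.98 in CerM, against 7.59, 7.07 and 6.93 in vehicle, and overlapped. Like the auxiliary to pore ratio, it was lowest in CerM library 2 and highest in vehicle library 1. Auxiliary genes have a median longest transcript of 3700 bases, above the cut for short ones. The part of length in the auxiliary to pore ratio was not tested.

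**Figure D3:**
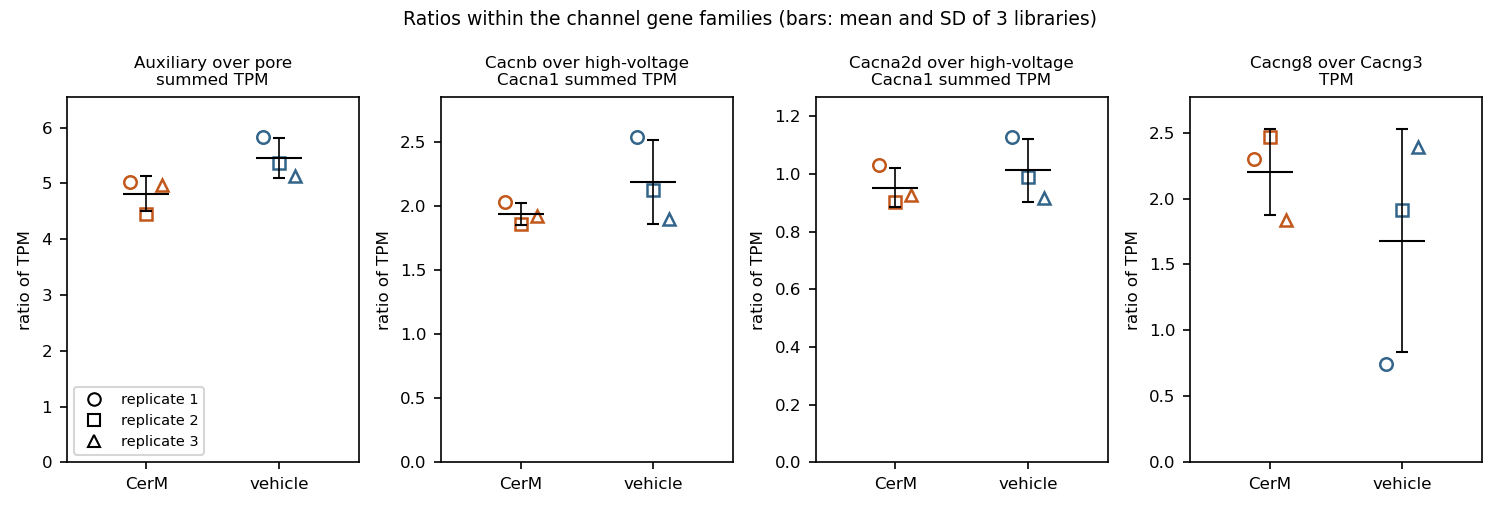
Ratios of TPM within the channel families for each library, with CerM left of vehicle, 1 symbol per replicate and black bars for the mean and SD of 3 libraries. The auxiliary to pore ratio lies at 4.45 to 5.02 in CerM and 5.14 to 5.84 in vehicle, and the Cacng8 to Cacng3 ratio has 1 low point, vehicle library 1 at 0.744.

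The precision of the data bounds what could be seen. The distances from estimate to bound of the 95% confidence intervals on the log2 scale had a median of 0.38 for channel genes and 0.37 for all tested genes. For 28 of the 31 genes the interval lay within a 2-fold change of TPM + 1, with Cacna1h and Cacng5 among the exceptions, and for 17 of the 31 within a 1.5-fold change. For genes of a few TPM this bounds TPM itself less tightly. Read depth is not recoverable from TPM and is unknown here.

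**Figure D4:**
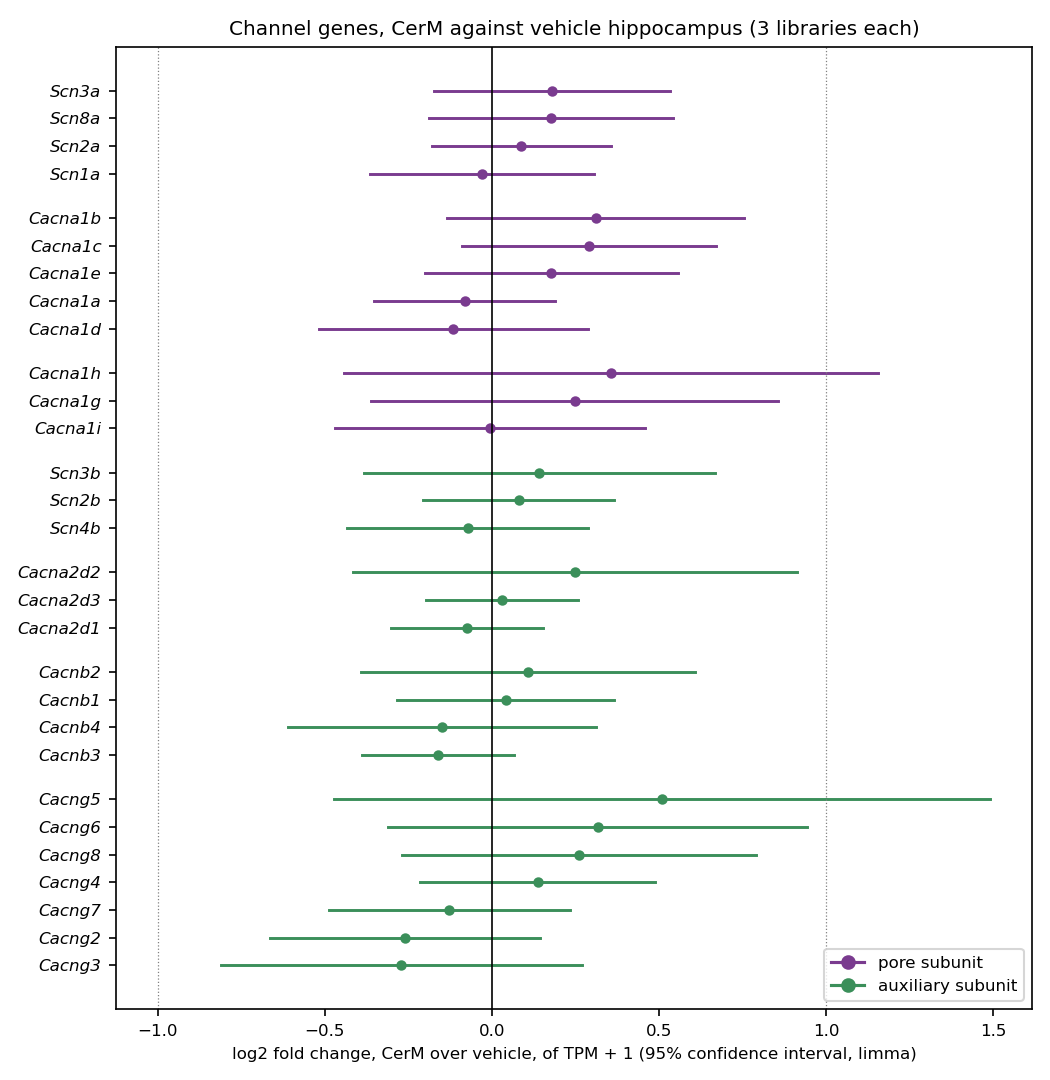
Log2 fold change of TPM + 1, CerM over vehicle, for 29 of the 31 tested channel genes with the 95% confidence interval from limma, pore subunits in purple and auxiliary subunits in green, dotted lines at −1 and 1. Each interval includes 0, and the widest drawn are those of Cacng5 and Cacna1h.

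Partner genes were not called either. Many have products that bind, anchor or regulate these channels. Others belong to AMPA-type glutamate receptors and their auxiliary proteins (such as the Gria genes) or to calcium release channels (Ryr). Nalcn, listed with Unc79, Unc80 and Fam155a, belongs to a separate sodium leak channel. A list of 57 names of partners held 53 symbols of the table, of which 50 were tested and limma called 0. Of these, 34 lay above 0 (68.0%, against 58.8% of all tested genes) and 16 below. Their median was 0.06 on the log2 scale, against 0.03 over all tested genes. Unadjusted p by limma was below 0.05 for 1 partner, against 2.7% of all tested genes. Levels did not overlap for 1 partner, against 7.3% of all tested genes. Both were Thbs4, so neither count is a result about partner genes. Thbs4, a thrombospondin (a family that binds alpha2-delta), had the smallest unadjusted p among tested partners, 0.0297, with an adjusted p of 0.989 by limma. It stood at 6.84, 11.7 and 8.72 TPM in CerM libraries 1 to 3, against 3.73, 6.07 and 6.45 TPM in vehicle libraries 1 to 3, without overlap, and its log2 fold change was 0.65 ± 0.24 (SE; 95% confidence interval 0.08 to 1.22). Ryr3, a calcium release channel of the endoplasmic reticulum, was next, at 7.12 ± 0.95 TPM in CerM and 4.68 ± 2.31 TPM in vehicle (SD, n = 3 each; log2 fold change 0.61 (−0.16 to 1.38)). Among those below 0 the smallest p belonged to Shisa9, an AMPA receptor auxiliary gene, and Cabp1, a calcium-binding regulator of calcium channels. Shisa9 had a log2 fold change of −0.19 (−0.45 to 0.08) and Cabp1 −0.28 (−0.79 to 0.24), and Cabp1 reached 208 TPM in vehicle library 1 against 104 to 130 TPM in the other 5.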

How the data were processed

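Total RNA of hippocampus was sequenced in 3 CerM and 3 vehicle libraries, grouped by sample title. The authors deposited 1 table of TPM with 2 decimals for 55414 genes. Per the submitters' processing notes, the tools and build were HISAT2, StringTie, RSEM and GRCm39, listed without role or version; strand use is not given in the sources used here. TPM keeps no depth, so no count test or counting interval was possible. Totals were 993379 to 995403 TPM per library, and no pair of libraries held identical values.

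Genes averaging 1 TPM or more (14916) were tested with limma 3.58.1 in R 4.3.3 on log2(TPM + 1), with a variance trend, two-sided, Benjamini-Hochberg over all tested genes, with 0.05 as the threshold for adjusted p. On this scale the changes of low genes are understated. SDs are over 3 libraries. Values of 2 tested channel genes, which stay in all counts, medians and sums, are not reported here. The fit was tested on simulated data. The members, partner list, markers and alternatives were chosen with earlier results of these data known. Genes given by library were, per family, the 3 highest by mean TPM, the smallest p, and any without overlap; partners were the 2 smallest p per direction; the sequences shown and a few others were chosen after their values were seen. Transcript lengths are the longest per gene in GENCODE M21 (GRCm38), matched by Ensembl identifier for 14853 of the tested genes and all 31 channel genes. Alternatives changed the pseudocount (0.1, 0.5), the TPM minimum (none, 5), scaling, variance model, sample weights, replicate block, a neocortex covariate and the libraries kept.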

Additional observations from a re-analysis of the deposited data

How the results depend on the processing

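The number of channel genes called was 0 of those tested under each of the 19 alternatives. Without a TPM minimum all 40 were tested. Changing only the variance model or the replicate block leaves the medians as they were. The medians kept within the spread between replicates except that of auxiliary genes without CerM replicate 2, −0.0802 against 0.04, and those of all and auxiliary genes without vehicle replicate 1 and CerM replicate 2. Leaving out each library in turn, or vehicle replicate 1 with CerM replicate 2 or 3, they ran from −0.0829 to 0.15 for all channel genes, −0.0197 to 0.25 for pore genes and −0.12 to 0.12 for auxiliary genes, lowest without vehicle replicate 1 and CerM replicate 2. The auxiliary to pore ratio differed (CerM minus vehicle) by −0.63, with −0.78 to −0.25 over left-out libraries, and the sodium beta to pore ratio by −0.997, with −1.22 to −0.75. Chosen after seeing the data, leaving out vehicle replicate 1 and CerM replicate 2 gave medians of −0.0829 for all and −0.12 for auxiliary genes and an auxiliary to pore difference of −0.25. The cause was not tested.

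Changing only the TPM minimum, the variance model or the replicate block leaves each fold change as it was, so no sign could change there. Of 455 values of the 24 named genes, those included, none called, 46 changed sign, in 17 genes. With sample weights these were Cacna1h (−0.15), Cacnb1 (−0.0386), Cacnb2 (−0.0735), Scn1a (0.0794), Scn2b (−0.0158) and Scn3b (−0.19), where 12.9% of the 31 genes and 18.1% of all tested genes had an unadjusted p below 0.05. With the neocortex score as covariate they were Cacna1i (0.0149), Cacnb2 (−0.0704), Scn1a (0.0654) and Scn3b (−0.0865), and without mt- genes Cacna1i (0.0066). Leaving out 1 library, or vehicle replicate 1 with CerM replicate 2 or 3, gave ranges of Cacna1a −0.21 to 0.0053; Cacna1e −0.0829 to 0.27; Cacna1g −0.0214 to 0.60; Cacna1h −0.27 to 0.57; Cacna1i −0.21 to 0.14; Cacna2d1 −0.13 to 0.0129. It gave Cacna2d2 −0.19 to 0.47; Cacna2d3 −0.0278 to 0.10; Cacnb1 −0.13 to 0.13; Cacnb2 −0.23 to 0.28; Cacng7 −0.24 to 0.0385; Cacng8 −0.14 to 0.42; Scn1a −0.0957 to 0.096; Scn2a −0.0197 to 0.15; Scn2b −0.0663 to 0.16; Scn3b −0.25 to 0.29; Scn8a −0.0485 to 0.29.

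With the replicate number as a block, 0 channel genes were called. The medians (0.09, 0.18 and 0.04) could not differ from before, since each number occurs in both groups. Deviations of same-numbered libraries correlated at 0.008, 0.196 and 0.222 across genes. Each library but vehicle library 1 correlated best with its own number, and vehicle library 1 did so with CerM library 2, at 0.065. For CerM library 1 the match was near 0, at 0.008, against 0.004 and −0.011 with vehicle libraries 2 and 3. Whether the numbers pair the samples is not known, and the main fit did not pair them. Depth is unknown for TPM.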
